A study of Homo sapiens with 4 samples.

Results

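DLK1, MEG3, MEG8 and DIO3 lie in the imprinted region of chromosome band 14q32, and they were examined here in cells with reduced PTPN1. The 4 genes were chosen by the DLK1 difference between knockdown and non-silencing in earlier results of these same arrays, and every probe set of each gene was read by itself. Probe sets of their own were present for 3 of the 4 genes, 2 for DLK1, 10 for MEG3 and 1 for DIO3, making 13 of 54613 probe sets compared. MEG8 was covered by 1 probe set that the platform's annotation also assigns to SNORD112, so its value cannot be given to either gene. RTL1, the remaining named protein gene of the region, had no probe set of its own.

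The cells were KM-H2, an established line derived from Hodgkin lymphoma. PTPN1, a tyrosine phosphatase that acts on JAK kinases, was reduced by small interfering RNA in the cells of 2 arrays, and the cells of the other 2 arrays received a non-silencing control. The series calls the arrays of a group technical replicates, so every SD below is the spread between arrays of 1 line and says nothing of separate cultures or other Hodgkin lines. No untransfected cells were among the samples, so what transfection itself did to either group cannot be read here. Values are log2 expression after the authors' RMA normalization, and 4 arrays limit the precision.

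Imprinted genes are expressed mainly from the copy inherited from 1 parent. In this region DLK1, RTL1 and DIO3 are protein genes expressed from the paternal copy, whereas MEG3, MEG8 and MEG9 are non-coding RNAs expressed from the maternal copy together with large clusters of small nucleolar RNAs and microRNAs. A methylated control region between DLK1 and MEG3 sets the pattern, and shared enhancers act across the region. DLK1 is known as an inhibitor of adipocyte differentiation and as a marker of fetal and some stromal and endocrine cells. It is not a typical gene of B cells or of Hodgkin cells.

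RefSeq (GRCh38.p14) lists 122 genes from DLK1 to DIO3, of which 54 are microRNA genes and 47 small nucleolar RNA genes. Of these 122 genes 7 had a probe set of their own, so the arrays say little about the small RNAs. Promoters are shown for MEG3 and DIO3, since they are the maternal and the paternal transcript that DLK1 is set against below. Each window runs 5′ to 3′ on the plus strand, from 250 bases before to 50 after the first listed start, and lies in RefSeq's GRCh38.p14 at chr14:100825858-100826157 for MEG3 and chr14:101561245-101561544 for DIO3. Capitals mark matches to any of 3 motifs searched on both strands, namely the cAMP response element TGACGTCA, the TATA box TATAAA and the STAT-type site TTCNNNGAA.
MEG3: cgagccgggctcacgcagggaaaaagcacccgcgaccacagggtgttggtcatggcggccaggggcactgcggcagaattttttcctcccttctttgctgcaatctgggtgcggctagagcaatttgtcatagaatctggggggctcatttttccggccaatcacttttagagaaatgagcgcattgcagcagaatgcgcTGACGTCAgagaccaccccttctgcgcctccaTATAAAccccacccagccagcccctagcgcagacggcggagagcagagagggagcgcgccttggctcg
DIO3: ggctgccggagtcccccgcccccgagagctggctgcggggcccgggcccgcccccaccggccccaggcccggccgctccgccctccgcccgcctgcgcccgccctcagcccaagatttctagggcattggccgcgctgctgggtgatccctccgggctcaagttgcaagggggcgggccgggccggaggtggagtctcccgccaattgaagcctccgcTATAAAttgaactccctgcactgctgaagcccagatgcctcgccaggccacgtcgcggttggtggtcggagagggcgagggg

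The MEG3 window held 1 match to TGACGTCA, with its first base 50 bases before the start, and 1 to TATAAA. DIO3 held 1 match to TATAAA, 32 bases before the start. Neither window held TTCNNNGAA, and those of RTL1 and MEG9 held none of the 3 motifs. The windows of DLK1 and MEG8 were not used here. Of 35116 RefSeq promoter windows of the same length, 1.85% held TGACGTCA, 11.5% TATAAA and 7.66% TTCNNNGAA. These matches describe letters only, and no binding was measured.

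PTPN1 was checked first. Its brightest probe set read 7.002 and 7.363 in the knockdown arrays, against 8.159 and 8.397 in the non-silencing arrays, a log2 difference of -1.10. The groups did not overlap at this probe set, in the direction of the labels. The other PTPN1 probe sets, all dim, differed by 0.01, -0.03 and -0.07.

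DLK1 transcript was abundant in both knockdown arrays by 1 of its 2 probe sets and not by the other. DLK1 encodes a membrane protein with EGF-like repeats that resembles the Notch ligands, and ADAM17 releases its outer part as a soluble form. Probe set 209560_s_at read 11.41 and 11.61 in the knockdown arrays, against 7.43 and 5.75 in the non-silencing arrays. Every knockdown value stood far above every non-silencing value. The means were 11.51 ± 0.14 and 6.59 ± 1.19 (SD, n = 2 each), a log2 difference of 4.92 or 30.3-fold, exceeded by 1 of the 54613 probe sets. The members were chosen for this difference, so it is given as a description with no test. In bulk RNA like this, more cells with DLK1 and more DLK1 RNA per cell cannot be told apart.

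The disagreement between arrays lay on the control side. The knockdown arrays were 0.20 apart at 209560_s_at, a gap that 47.3% of all probe sets exceeded. Non-silencing arrays were 1.68 apart there, and only 0.143% of probe sets (78 in number) had a wider gap between those arrays. Array number 1 therefore gave a difference of 3.98, and array number 2 one of 5.86. Both control values lay above the median of all values, 5.11, so DLK1 was read above a typical dim probe set in the non-silencing arrays as well.

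Probe set 235600_at, also annotated to DLK1, read 4.61 and 4.52 in the knockdown arrays, against 4.35 and 4.47 in the non-silencing arrays. The groups did not overlap here either, but the difference was 0.16 on the log2 scale, or 1.11-fold. All 4 values lay below the median of their arrays, so this probe set was dim in both groups. Array number 1 gave 0.26 and array number 2 gave 0.05. The direction was thus shared by both DLK1 probe sets, whereas the size was not. Of all probe sets, 13.4% had the groups apart with knockdown higher, and 15.8% had a higher difference than 235600_at. The shared direction at this dim probe set therefore says little by itself. Where each probe set lies on the transcript is not given in the sources used here.

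**Figure D1:**
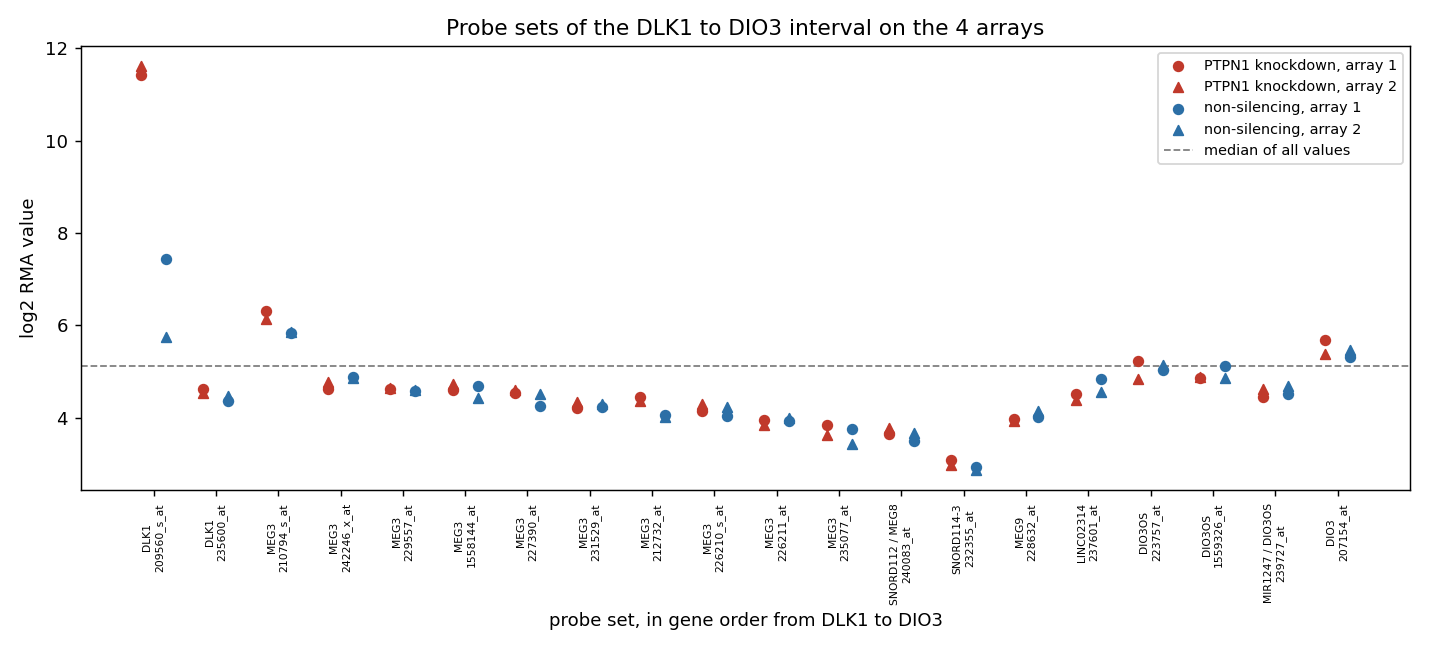
Log2 RMA value (vertical axis) of each of the 20 probe sets annotated to genes from DLK1 to DIO3 (horizontal axis, in gene order), with PTPN1 knockdown arrays in red left of non-silencing arrays in blue; circles are arrays numbered 1, triangles arrays numbered 2, and the dashed line is the median of all values, 5.11. DLK1 209560_s_at is the one probe set whose groups are far apart, at 11.41 and 11.61 in knockdown against 7.43 and 5.75 in non-silencing.

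A bright probe set standing alone was not particular to DLK1 among the genes with large differences. Represented by the probe set with the highest mean, 23 genes were at least 4-fold higher in the knockdown arrays, and 17 of them had further probe sets. In 9 of the 17, DLK1 among them, no further probe set was as much as 2-fold higher, and in 8 at least 1 was. The transcription factor gene TOX, for example, differed by 2.32 at its brightest probe set and by 0.28 at its other. NOL4, by contrast, differed by 2.50 and 2.26 at its probe sets. Because the mean that picks the brightest probe set includes the knockdown arrays, a probe set can be picked through its knockdown values. This was so for the gene AFF3, whose control mean was 3.68 at the picked probe set and 4.43 at another. These counts were not set beside all genes with several probe sets, so they do not show how common a lone probe set is.

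**Figure D2:**
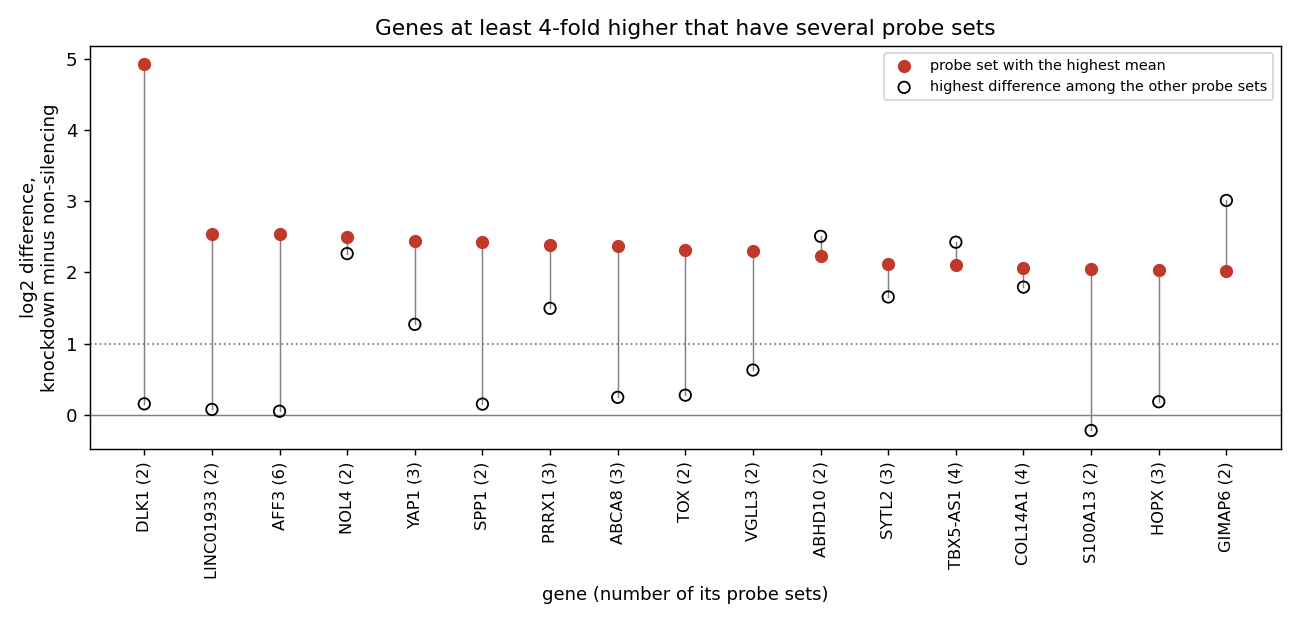
Log2 difference, knockdown minus non-silencing (vertical axis), for the 17 genes at least 4-fold higher that have several probe sets (horizontal axis, with the number of probe sets in brackets). Filled points are the probe set with the highest mean and open points the highest difference among the others, which for DLK1 are 4.92 and 0.16.

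MEG3 is the main maternally expressed transcript of the region, a long non-coding RNA known for stimulating p53 in other cells. At the brightest of its 10 probe sets, 210794_s_at, it read 6.31 and 6.13 in the knockdown arrays, against 5.82 and 5.86 in the non-silencing arrays. The groups did not overlap, and the log2 difference was 0.38, or 1.30-fold. Array number 1 gave 0.49 and array number 2 gave 0.27. This was the only MEG3 probe set above the median of all values.

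A dimmer MEG3 probe set, 212732_at, showed a difference of nearly the same size. It read 4.45 and 4.36 in the knockdown arrays, against 4.07 and 4.02 in the non-silencing arrays, a difference of 0.36. In the opposite direction, 242246_x_at read 4.61 and 4.77 in the knockdown arrays, against 4.87 and 4.85 in the non-silencing arrays, a difference of -0.17. So MEG3 probe sets disagreed in sign while each kept its groups apart. The remaining 7 ranged between these values.

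Over its 10 probe sets MEG3 differed by a median of 0.10, with a range from -0.17 to 0.38 and 8 differences above 0, as in 48.7% of all probe sets. Of the 10, 4 had both knockdown arrays above both non-silencing arrays, 1 had them below and 5 overlapped. Among all 54613 probe sets the groups were apart with knockdown higher in 13.4%, apart with knockdown lower in 15.3% and apart either way in 28.7%. The 10 probe sets read 1 gene on the same arrays and are not independent of each other. None was 2-fold apart, compared with 0.275% of all probe sets 2-fold or more above the controls and 0.0952% as far below them.

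The probe set shared by MEG8 and SNORD112, which belong to the maternal transcripts, read 3.65 and 3.78 in the knockdown arrays, against 3.50 and 3.67 in the non-silencing arrays. The groups overlapped, and the difference was 0.135. SNORD114-3, a small nucleolar RNA gene within the maternal clusters, read 3.08 and 2.97 in the knockdown arrays, against 2.93 and 2.86 in the non-silencing arrays, a difference of 0.13 with the groups apart. MEG9 read 3.97 and 3.92 in the knockdown arrays, against 4.01 and 4.14 in the non-silencing arrays, a difference of -0.13 with the groups apart. All of these lay below the median of their arrays, where RMA compresses differences. The maternal RNAs therefore had differences of both signs, and none near the size of the DLK1 difference.

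DIO3 encodes the deiodinase that inactivates thyroid hormone and stands at the far end of the region from DLK1. It read 5.68 and 5.37 in the knockdown arrays, against 5.32 and 5.45 in the non-silencing arrays. The groups overlapped. The difference of 0.14 had the value 0.36 for array number 1 and -0.08 for array number 2, so its sign depended on the pair. DIO3OS, the antisense non-coding neighbour of DIO3, overlapped at both of its own probe sets, which differed by -0.05 and -0.11. A further probe set, shared by DIO3OS and MIR1247, differed by -0.07 with overlap.

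LINC02314, a non-coding RNA gene listed between MEG9 and DIO3OS, read 4.51 and 4.37 in the knockdown arrays, against 4.83 and 4.55 in the non-silencing arrays. The groups did not overlap, and the difference of -0.25 was the lowest of the region. Apart from DLK1, the region's 16 single-gene probe sets, from 6 genes, had a median difference of 0.07, with a range from -0.25 to 0.38 and 0 of the 16 past 2-fold. Knockdown was higher with the groups apart in 5 of them, lower with the groups apart in 3, and 8 overlapped, beside 13.4% higher and 15.3% lower over all probe sets. The median over all probe sets was -0.005. At the brightest probe sets, the DLK1 difference exceeded the MEG3 difference by 4.54 on the log2 scale, by 3.49 within array number 1 and by 5.59 within array number 2.

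Genes flanking the region did not share the DLK1 difference in size. The 10 nearest measured genes on the DLK1 side, EML1 to LINC00523 in RefSeq order, had a median difference of 0.04, and the 10 on the DIO3 side, PPP2R5C to RCOR1, had a median of 0.08. Of the 20, 4 had the groups apart with knockdown higher and 3 with knockdown lower, against 12.4% and 15% of the 19775 genes measured. No neighbour was 2-fold apart. The immediate neighbours of DLK1 were LINC00523 and BEGAIN, which encodes a synaptic protein, and these differed by -0.06 and -0.08. MOK, a protein kinase gene, differed most, by 0.40.

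**Figure D3:**
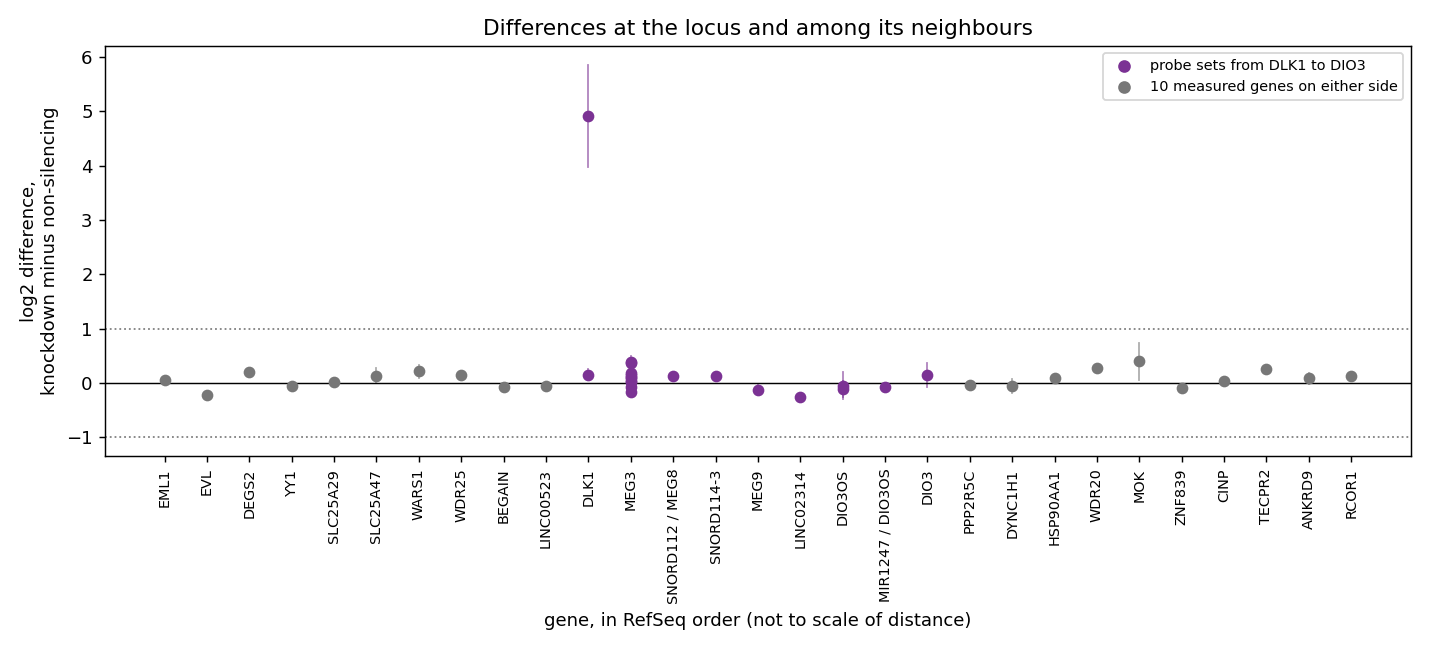
Log2 difference, knockdown minus non-silencing (vertical axis), in RefSeq gene order (horizontal axis, evenly spaced), with every probe set from DLK1 to DIO3 in purple and the brightest probe set of the 10 measured genes on either side in grey. Points are differences of group means, thin lines join the differences within array numbers 1 and 2, and dotted lines mark 2-fold; only DLK1 209560_s_at lies beyond them.

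Factors known to set or read imprints were compared as a list, because they act on the control regions of this and other imprinted genes. Of 21 listed genes 20 were measured, with a median difference of 0.03, against -0.01 over all genes. Knockdown was higher with the groups apart in 4 and lower with the groups apart in 0, against 12.4% and 15% over all genes. ZFP57, ZNF445 and TRIM28, which protect imprints from demethylation, differed by 0.01, 0.20 and -0.002 with overlapping groups. DNMT1, the maintenance DNA methyltransferase, differed by -0.10, also with overlap.

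By brightest probe set, AFF3 and TET1 were the 2 genes of that list past 2-fold, both higher in knockdown. Over all genes 0.43% were that much higher and 0.162% that much lower. The brightest probe set is picked by its mean over all 4 arrays, knockdown included. By the mean of all probe sets the differences were 0.40 for AFF3 and 0.79 for TET1, below 2-fold. TET2 differed by 0.03 at its brightest probe set and by 0.41 by the mean of its 3. The list median of such means was 0.04. AFF3 is a nuclear protein of transcription elongation complexes, and in mouse embryonic stem cells it binds the control region between Dlk1 and Meg3. Its brightest probe set read 6.06 and 6.37 in the knockdown arrays, against 3.80 and 3.56 in the non-silencing arrays, a difference of 2.54. The differences of the 5 other AFF3 probe sets lay between -0.12 and 0.05 with overlapping groups. The AFF3 difference, like that of DLK1, thus rested on 1 probe set. Unlike those of DLK1, the AFF3 control values at that probe set lay below the lower quartile of their arrays, 4.1.

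TET1 encodes an enzyme that starts the removal of DNA methylation. It read 4.65 and 5.51 in the knockdown arrays, against 3.64 and 3.79 in the non-silencing arrays, a difference of 1.36. The groups did not overlap, but the knockdown arrays were far from each other, and the control values lay below the lower quartile of their arrays, 4.10. The other TET1 probe set read 2.80 and 2.71 in the knockdown arrays, against 2.53 and 2.56 in the non-silencing arrays, a smaller difference in the same direction (0.21).

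Imprinted genes of other chromosome regions showed no difference of the DLK1 kind. Of 26 listed genes 21 were measured, with a median difference of -0.01, a range from -0.40 to 0.36, and 0 at 2-fold. Groups were apart with knockdown higher in 2 of the 21 and with knockdown lower in 1 (12.4% and 15% over all genes). DIRAS3, a paternally expressed Ras-like gene, had the highest difference (0.36) and HYMAI, a non-coding RNA, followed with 0.18. MEST, a paternally expressed gene of growth control, was lowest at -0.40, and PEG10, a gene derived from a retrotransposon, followed at -0.29. DIRAS3, HYMAI and MEST were dimmer than the median of all values. PHLDA2, a bright maternally expressed gene, differed by -0.03.

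Genes of Notch signalling and of the DLK1 pathway stood near the values of all genes. All 21 listed genes were measured, with a median difference of 0.06, or -0.03 without knockdown array 1, and 0 at 2-fold. Knockdown was higher with the groups apart in 2 and lower with the groups apart in 4, near the 12.4% and 15% of all genes. NOTCH1 and NOTCH2, the receptors DLK1 is known to interact with in other cells, differed by 0.21 and 0.07 with overlapping groups, and DLK2, the closest relative of DLK1, by 0.04. HES1, a classical Notch target, read 7.66 and 6.75 in the knockdown arrays, against 6.84 and 6.50 in the non-silencing arrays, so its difference of 0.53 came with overlap. PPARG and CEBPA, the factors of adipocyte differentiation that DLK1 is known to restrain, both differed by -0.25 with the groups apart. CEBPB and CEBPD, adipogenic factors of the same family as CEBPA, went the other way by 0.25 and 0.27, with overlapping groups for CEBPB and groups apart for CEBPD, so the 4 adipogenic factors shared no direction. The PPARG and CEBPD values were below the median of all values.

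Genes of thyroid hormone handling were listed because of DIO3. Of 11 listed genes 10 were measured, with a median difference of -0.03, and 0 at 2-fold. The groups were apart in 2 with knockdown higher and in 3 with knockdown lower (12.4% and 15% over all genes). The transporter genes SLC16A10 and SLC7A5 had the highest differences, 0.29 and 0.28. THRSP and the deiodinase gene DIO1 had the lowest, -0.32 and -0.31. Without knockdown array 1 the median was -0.16, and without knockdown array 2 it was 0.25, so the list had no stable direction.

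**Figure D4:**
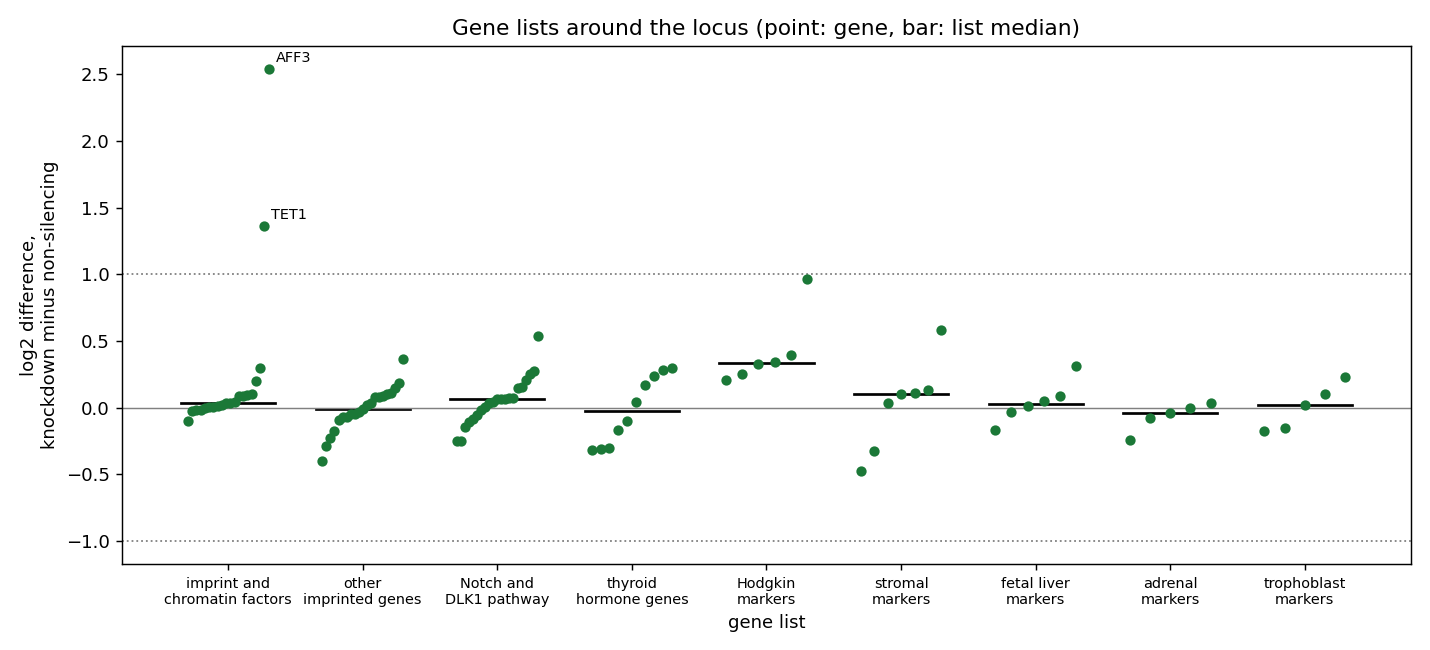
Log2 difference, knockdown minus non-silencing (vertical axis), of each measured gene in the lists named on the horizontal axis, each gene by its brightest probe set. Black bars are list medians and dotted lines mark 2-fold; AFF3 (2.54) and TET1 (1.36) are the genes beyond them.

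Markers of the labelled cell type were present, and markers of other DLK1-expressing tissues were mostly dim, though stromal COL1A1 and PDGFRA were bright. The 6 Hodgkin markers, among them the receptor CD30 (TNFRSF8) and the chemokine CCL17, all lay above the median of all values. Their differences were all above 0, as were 48.2% over all genes, with a median of 0.33, and their summed log2 values were 57.0 and 54.5 in the knockdown arrays, against 53.6 and 53.0 in the non-silencing arrays. The groups were apart, with knockdown higher, in 3 of the 6, against 12.4% over all genes. Without knockdown array 1 the median was 0.08, without non-silencing array 2 it was 0.14, and without knockdown array 2 it was 0.53. Their part in the DLK1 difference was not tested.

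Of 7 stromal markers, COL1A1, PDGFRA and PDGFRB lay above the median of all values, and COL1A2, COL3A1, DCN and LUM below it, by their means. COL1A1 and PDGFRA were bright, with means of 9.21 and 10.55 in the knockdown arrays, against 9.69 and 9.97 in the non-silencing arrays. PDGFRA differed by 1.23 within array number 1 and by -0.07 within array number 2, with overlapping groups. Summed log2 values of the stromal list were 42.2 and 43.0 in the knockdown arrays, against 41.5 and 43.4 in the non-silencing arrays, which overlap. These sums took the brightest probe sets, where LUM differed by 0.11. By the mean of its 2 probe sets LUM differed by 0.59, so its dimmer probe set was higher in knockdown by more than 0.59. The median of such means over the stromal list was 0.045. For 6 fetal liver markers, AFP and ALB among them, the sums were 27.8 and 27.2 in the knockdown arrays, against 27.3 and 27.3 in the non-silencing arrays. The 5 measured adrenal and neuroendocrine markers summed to 23.3 and 23.6 in the knockdown arrays, against 23.2 and 24.4 in the non-silencing arrays. For the 5 trophoblast markers the sums were 23.2 and 24.1 in the knockdown arrays, against 23.1 and 24.1 in the non-silencing arrays. None of these 4 lists had its groups apart by its summed value, and RMA values have no true 0.

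The genes most like DLK1 over the 4 arrays were FDCSP, SERPINA6, IL12B, ABHD10 and AFF3. Likeness was the smallest Euclidean distance between log2 values centred on each probe set's own mean, against DLK1 209560_s_at. The distance was 1.09 for FDCSP, 2.04 for SERPINA6, 2.07 for IL12B, 2.57 for ABHD10 and 2.59 for AFF3. FDCSP, a gene of a small secreted protein, read 10.83 and 9.84 in the knockdown arrays, against 5.59 and 4.85 in the non-silencing arrays. Unlike DLK1, it read lower in knockdown array 2 than in knockdown array 1. With 4 arrays a distance mostly records the size of the group difference, so this order says little more than which genes differed most.

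Across all probe sets, limma called 0 of 54613 at an adjusted p under 0.05 (0%), with 1364 at an unadjusted p under 0.05. The lowest adjusted p in limma was 0.248. No member was therefore called in this fit, and no other gene named here, PTPN1 included. With the array number as a replicate block limma called 164 probe sets, among them the brightest of DLK1, PTPN1, AFF3 and TET1 and none of MEG3 or DIO3, but no label gives the numbers a shared batch. Arrays of the same number were alike beyond their group, and so were their beta-actin controls, whose signal at the 3′ end over that at the 5′ end reports on RNA integrity. This log2 excess was 1.33 and 0.97 in knockdown arrays 1 and 2, against 1.31 and 0.97 in non-silencing arrays 1 and 2. This measure moved with the array number and hardly with the knockdown. An exact permutation test of 2 against 2 arrays cannot give a p below 0.333, so no single probe set could pass one.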

How the data were processed

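RNA from KM-H2 cells was measured on 4 Affymetrix arrays after 2 cycles of amplification, per the labels' protocols, a step that favours 3′ ends of transcripts. The deposited log2 values come from RMA, which corrects background, quantile-normalizes arrays and summarises probes into probe sets, and which the authors ran per the submitters' processing notes. Its software and version are not given in the sources used. Arrays were grouped by title.

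No further normalization was applied. Of 54675 probe sets, 62 controls were left out. Gene names came from the platform's annotation and were checked by gene ID against RefSeq, which changed 0 of them (41037 of 41091 single-symbol probe sets matched). Lists took each gene's brightest probe set, by its mean over the 4 arrays. The fit across all probe sets used limma 3.58.1 in R 4.3.3 (lmFit, eBayes, two-sided, Benjamini-Hochberg) and was tested on simulated data. Unlike these arrays, the simulated probe sets had 1 common spread and nothing shared by array number. That test therefore cannot tell how the fit behaves here. The p-values of the fit measure only technical spread. Groups were called apart when both knockdown arrays lay on 1 side of both non-silencing arrays. Named genes were all probe sets of the region, list genes past 2-fold, otherwise the 2 highest and 2 lowest, and the 5 genes nearest to DLK1, with further list members named for their role. Outside this rule, PTPN1 was named as the check and TOX and NOL4 as examples of the genes at least 4-fold higher. Flanking genes were named for their place, and MOK because it differed most among them. Members and lists were chosen with earlier results of these data known, so they support nothing independently. Alternatives were renormalization, centring, averaged probe sets, a filter on dim probe sets, other variance models, a replicate block and leaving out each array.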

Additional observations from a re-analysis of the deposited data

How the results depend on the processing

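Renormalizing by quantiles or centring the arrays changed the DLK1, MEG3 and DIO3 differences by less than the spread between arrays. With the mean of all probe sets the difference was 2.54 for DLK1 and 0.11 for MEG3, and DLK1 exceeded MEG3 by 2.43. In that setting AFF3 differed by 0.40 and TET1 by 0.79. Within array numbers 1 and 2, a comparison added after seeing the data, DLK1 differed by 3.98 and 5.86, MEG3 by 0.49 and 0.27, and DLK1 exceeded MEG3 by 3.49 and 5.59. Leaving out each array in turn gave 4.08 to 5.76 for DLK1, 0.29 to 0.47 for MEG3 and 3.68 to 5.40 for the excess of DLK1 over MEG3. DIO3 was -0.02 without knockdown array 1. The replicate block left the DLK1 difference at 4.92, and limma with this replicate block called 164 probe sets, 115 higher and 49 lower, against 0 without it. Among the 164 were 209560_s_at of DLK1 and the brightest probe sets of PTPN1, AFF3 and TET1. The correlation of deviations between same-numbered arrays was 0.593, although no label gives the numbers a shared batch. Leaving out 1 array gave from 0 to 1 called probe sets in limma. The 1 was DLK1 without non-silencing array 1, a setting that removes the spread between controls and so adds no support. The other limma settings on all 4 arrays called 0, with 505 to 1552 probe sets at an unadjusted p under 0.05 depending on the setting. An ordinary linear model without moderation, not planned in advance, also called 0, with 2334 at an unadjusted p under 0.05. The cause of these movements was not tested.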
